A study of Mus musculus with 2 samples.

Results

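*Pln*, *Mrvi1*, *Itpr1*, *Kcnma1*, *Kcnmb1*, *Vasp*, *Ppp1r12a*, *Atp2a2*, *Cacna1c* and *Ryr2* encode substrates of cGMP-dependent protein kinase (cGK) and proteins that move calcium or potassium ions in smooth muscle. These 10 genes were taken by symbol from the 31053 genes of the deposited count matrices. They were measured in 2 single-cell RNA sequencing (scRNA-seq) libraries of primary vascular smooth muscle cells (VSMCs) of the aorta of wild-type mice, which the labels give as biological replicates 1 and 2, both taken after 5 days in culture and here called library 1 and library 2. Per the study's methods the aortae of several C57BL6/N mice were usually pooled for a culture, and the age of the animals of these libraries was not given in the sources used here. With 1 genotype, 1 medium and no treatment, every comparison is between cells of the same cultures. VSMCs lose contractile proteins in culture, and the study compared the phenotypes that result.

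In a relaxing smooth muscle cell, cGMP made by guanylyl cyclases activates cGK, which lowers cytosolic calcium and the calcium sensitivity of myosin. The kinase acts on calcium release from the sarcoplasmic reticulum through IRAG (*Mrvi1*) bound to the inositol trisphosphate receptor (*Itpr1*), on calcium reuptake through phospholamban (*Pln*), the inhibitor of the pump SERCA2 (*Atp2a2*), on the membrane potential through the large-conductance calcium-activated potassium (BK) channel (pore subunit *Kcnma1*, accessory β1 subunit *Kcnmb1*), on myosin phosphatase through its targeting subunit MYPT1 (*Ppp1r12a*), and on actin through VASP (*Vasp*). Calcium itself enters through the L-type channel (pore subunit *Cacna1c*) and is also released by the ryanodine receptor *Ryr2*, whose calcium sparks open BK channels in arterial smooth muscle.

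After the study's cell filters (at least 300 genes, at least 3000 unique molecular identifiers (UMIs), under 20% mitochondrial UMIs), 4866 cells of library 1 and 6824 cells of library 2 remained, with medians of 22234.5 and 16310 UMIs per cell, and 9 cell barcodes occurred in both. Cells were divided by *Myh11*, the smooth muscle myosin heavy chain and a marker of contractile VSMCs. Cells with at least 5 *Myh11* UMIs (*Myh11*-high) numbered 473 and 879, cells with 2 to 4 numbered 337 and 442, and cells with at most 1 (*Myh11*-low) numbered 3954 and 5362 in libraries 1 and 2. Endothelial cells, set apart first by at least 2 UMIs in 2 of *Pecam1*, *Cdh5*, *Cldn5* and *Gja4*, numbered 102 and 141. The summed level of 7 contractile markers that chose no cell was 22599 and 22870 CPM (counts per 1000000 UMIs) in *Myh11*-high cells. It was 6140 and 3370 CPM in *Myh11*-low cells and 2794 and 1970 CPM in endothelial cells. That of 8 endothelial markers was 3270 and 3476 CPM in endothelial cells against at most 99.5 CPM in *Myh11*-high and *Myh11*-low cells. The middle class was not summed. Median depth was 25667 and 21018 UMIs in *Myh11*-high, 21979 and 15640 in *Myh11*-low and 14629 and 10250 in endothelial cells. Cells scored as cycling made up 42.9% and 45.1% of *Myh11*-high, 40.7% and 32.3% of *Myh11*-low and 25.5% and 19.1% of endothelial cells. The score was a fixed cutoff on the summed UMIs of *Mki67*, *Top2a*, *Cenpf*, *Cdk1* and *Ccnb1*, not corrected for depth, so deeper cells reach it more easily. Depth and this score thus moved with class, and their part in the results was not tested beyond the thinned shares and the alternatives given.

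Of the 9 genes that could be tested, 1 rose in *Myh11*-high over *Myh11*-low cells by the test of class alone (*Kcnmb1*), where 1.83% of all genes rose, and 6 did when each library's sums were compared with each other (*Kcnmb1*, *Mrvi1*, *Kcnma1*, *Ryr2*, *Atp2a2* and *Vasp*), where 8.82% did. Endothelial cells were lower than both classes in *Mrvi1*, *Atp2a2* and *Cacna1c*. *Ryr2* had enough counts to be tested only through *Myh11*-high cells, the class where it is high. *Pln* was close to undetected in every class.

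Positions of the genes are those of GRCm38 and GENCODE M21. *Kcnmb1* (ENSMUSG00000020155, chr11:33963013-33973641, plus strand) is a gene of 1 transcript that lies inside an intron of *Kcnip1* on the opposite strand, and no exons of the pair overlap. *Mrvi1* (ENSMUSG00000005611, chr7:110868266-110982461, minus strand) and *Itpr1* (ENSMUSG00000030102, chr6:108213096-108551109, plus strand) each share exonic bases with a counted antisense gene, and *Pln* (ENSMUSG00000038583, chr10:53337667-53345987, plus strand) shares them with *Cep85l* on the other strand. The other members are *Ppp1r12a* (chr10:108162193-108284475, plus strand), *Atp2a2* (chr5:122453513-122502225, minus strand), *Vasp* (chr7:19256929-19271817, minus strand), *Cacna1c* (chr6:118587240-119196418, minus strand), *Ryr2* (chr13:11553102-12106945, minus strand) and *Kcnma1* (chr14:23289431-24014491, minus strand).

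Upstream sequence is shown for 3 members, *Kcnmb1* with the widest gap between *Myh11* classes, *Mrvi1* with an intermediate one and *Ppp1r12a*, which was present in most cells of every class. Each run is the 250 bases before the RefSeq start (GRCm38.p6) on the gene's own strand, 5′ to 3′, outside annotated exons, with CpG dinucleotides in capitals.
*Kcnmb1*, chr11:33962763-33963012, plus strand: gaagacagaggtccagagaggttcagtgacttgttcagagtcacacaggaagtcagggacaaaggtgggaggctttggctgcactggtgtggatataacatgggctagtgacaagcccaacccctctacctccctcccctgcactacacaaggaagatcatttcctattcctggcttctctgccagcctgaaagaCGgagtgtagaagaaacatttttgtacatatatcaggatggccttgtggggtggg
*Mrvi1*, chr7:110982462-110982711, minus strand: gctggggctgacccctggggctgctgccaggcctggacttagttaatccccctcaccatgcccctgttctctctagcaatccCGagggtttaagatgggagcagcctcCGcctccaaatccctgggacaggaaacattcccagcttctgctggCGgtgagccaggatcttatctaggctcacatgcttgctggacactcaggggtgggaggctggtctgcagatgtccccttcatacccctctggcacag
*Ppp1r12a*, chr10:108161848-108162097, plus strand: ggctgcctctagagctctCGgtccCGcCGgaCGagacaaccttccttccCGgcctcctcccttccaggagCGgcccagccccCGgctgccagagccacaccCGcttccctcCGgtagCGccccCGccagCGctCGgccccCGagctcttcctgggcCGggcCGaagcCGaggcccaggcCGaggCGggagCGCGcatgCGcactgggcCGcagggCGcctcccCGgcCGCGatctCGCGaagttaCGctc
The *Kcnmb1* run holds 1 CpG, the *Mrvi1* run 3 and the *Ppp1r12a* run 30. RefSeq windows from 250 bases before to 50 bases after a start matched 8 of the 10 genes, in 11 windows. Of these 11 windows 3 (*Kcnmb1*, *Pln* and 1 of the 2 of *Mrvi1*) held 1 CpG each, as few as 14.1% of all 32851 promoters (at most 1). The window of *Ppp1r12a* had 40, a number reached by 3.91% of promoters, and the 3 windows of *Cacna1c* had 3, 7 and 57. Those of *Kcnma1*, *Ryr2* and *Vasp* had 36, 18 and 13. A link between CpG number and the gap between classes was not tested. The CArG box of serum response factor (CC, 6 bases that are A or T, GG, which reads the same on both strands) was in 0 of the 11 windows and in 1.63% of all promoters. TATAAA, on either strand, was in the *Pln* window and in 13.6% of promoters, and GGGCGG, on either strand, was in 5 of the 11 windows and in 35.7% of promoters.

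*Kcnmb1* had the widest range. Its level was 52.1 and 63.0 CPM in the *Myh11*-high cells of libraries 1 and 2, 3.89 and 23.6 CPM in cells with 2 to 4 *Myh11* UMIs, and 0.26 and 1.02 CPM in *Myh11*-low cells. Both *Myh11*-high values lay far above both *Myh11*-low values, with no overlap. The ratio was 199 in library 1 (95% counting interval 134 to 310) and 61.6 in library 2 (50.01 to 76.6). On summed counts the log2 fold change was 6.55 ± 0.64 (SE, n = 2 libraries, edgeR quasi-likelihood test, Benjamini-Hochberg adjusted p = 0.0098), and adjusted p-values over 12 alternatives ran from 1.94e-21 to 0.0653, the highest without a filter on low counts, which ended the call. Among all 13221 genes tested 1.83% rose in the same test, beside 1 of the 9 members tested.

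A UMI of *Kcnmb1* was found in 41.6% (exact binomial 95% interval 37.2 to 46.2) and 64.2% (60.9 to 67.3) of *Myh11*-high cells, and in 0.56% (0.35 to 0.84) and 1.45% (1.15 to 1.81) of *Myh11*-low cells. RNA released into the medium alone would put a UMI in 0.42% and 0.51% of *Myh11*-low cells, so the share in *Myh11*-low cells of library 1 was not distinguishable from that background. With each cell thinned to 3000 UMIs the shares were 13.5% and 17.3% against 0.13% and 0.37%. The difference between the classes was therefore also present at equal depth.

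**Figure D1:**
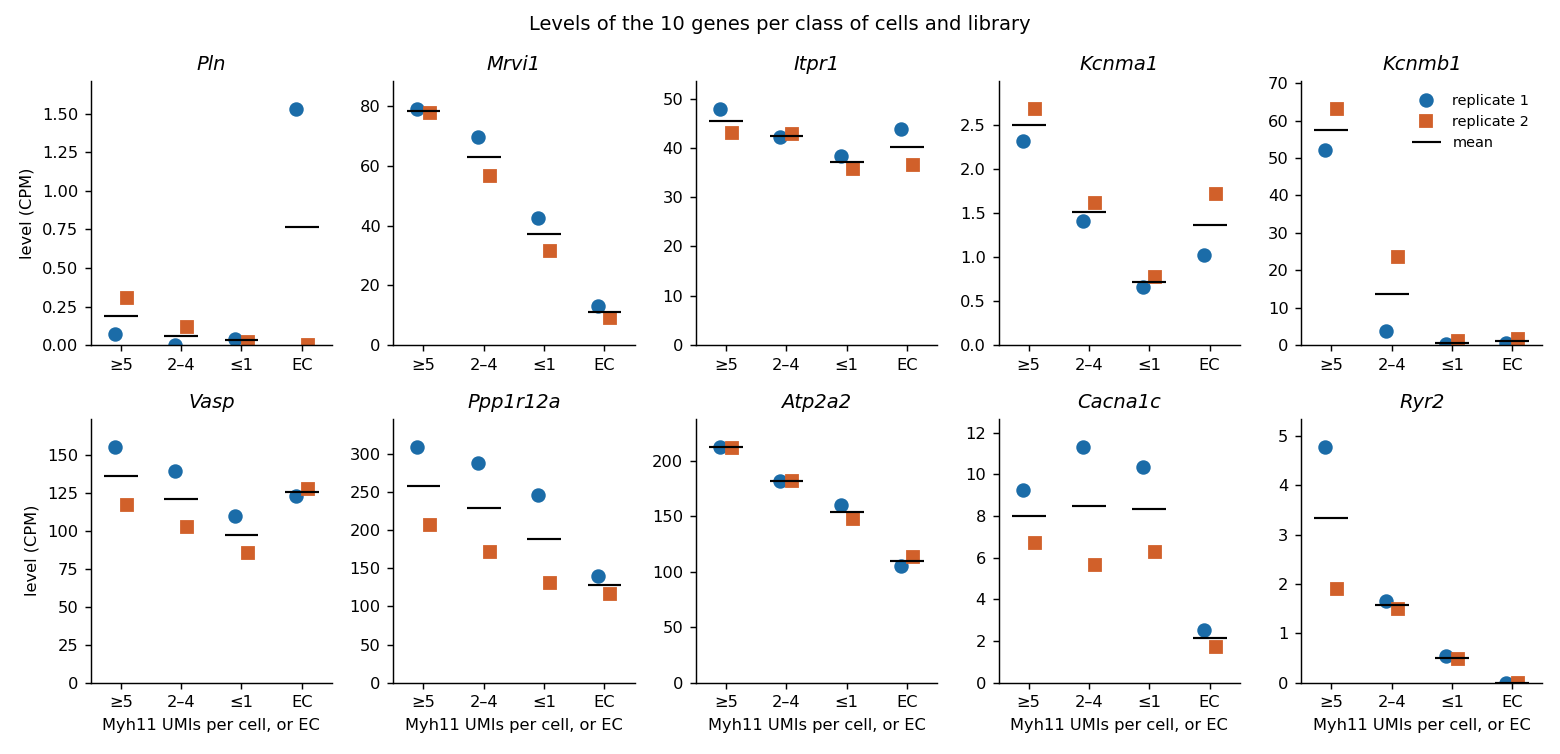
Level of each of the 10 genes in CPM, on a linear axis of its own from 0, in cells with at least 5, 2 to 4 or at most 1 *Myh11* UMIs and in endothelial cells (EC), with a point for each of the 2 libraries (replicates) and a line at their mean. *Kcnmb1* falls from 52.1 and 63.0 CPM in *Myh11*-high to 0.26 and 1.02 CPM in *Myh11*-low cells, while *Itpr1* stays between 35.8 and 47.8 CPM in all classes.

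*Kcnma1*, the pore that *Kcnmb1* modulates, was sparse. It reached 2.32 and 2.68 CPM in *Myh11*-high and 0.66 and 0.78 CPM in *Myh11*-low cells, with no overlap, and 5.92% and 5.57% against 1.49% and 1.08% of cells had a UMI. The fold change missed the threshold by class alone (log2 1.85 ± 0.35 SE, edgeR adjusted p = 0.0624) and passed with the library as a block (adjusted p = 0.0104), and over 12 alternatives adjusted p-values ran from 0.00114 to 0.129. *Kcnmb1* UMIs outnumbered *Kcnma1* UMIs by 22.5 to 1 (15.7 to 33.4) and 23.5 to 1 (17.8 to 31.7) in *Myh11*-high cells. In *Myh11*-low cells the ratio was 0.40 (0.24 to 0.64) and 1.32 (0.96 to 1.81). These ratios compare UMIs at the 3′ ends of a pair of genes and were followed between classes only. In the *Myh11*-low class of library 2, 1 cell alone held 8 of the 73 *Kcnma1* UMIs.

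*Mrvi1*, the anchor between cGK and the inositol trisphosphate receptor, was at 79.0 and 77.6 CPM in *Myh11*-high, 69.7 and 56.5 CPM in the middle class and 42.7 and 31.5 CPM in *Myh11*-low cells. The *Myh11*-high values were the highest in both libraries and overlapped with no *Myh11*-low value. The ratio was 1.85 (1.73 to 1.98) and 2.46 (2.31 to 2.62). The log2 fold change of 1.13 ± 0.21 (SE) had an adjusted p of 0.0590 by class alone and 0.00385 with the library as a block (edgeR), with a range of 0.000351 to 0.171 over 12 alternatives. Thinned shares were 20.8% and 20.6% against 11.5% and 8.38%. *Itpr1*, the receptor that *Mrvi1* binds, had 47.8 and 43.0 CPM in *Myh11*-high and 38.4 and 35.8 CPM in *Myh11*-low cells, and its log2 fold change of 0.35 ± 0.15 did not pass either way (edgeR adjusted p = 0.324 by class and 0.0591 with the block).

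*Ryr2* was low everywhere but unevenly spread. Its level was 4.78 and 1.90 CPM in *Myh11*-high (64 and 37 UMIs) and 0.53 and 0.49 CPM in *Myh11*-low cells (51 and 46 UMIs), and library 1 was 8.96 times (6.11 to 13.2) and library 2 3.89 times (2.45 to 6.12) higher in *Myh11*-high cells. The classes did not overlap, but in library 2 the *Myh11*-high level was close to the 1.499 CPM of the middle class. By class alone the log2 fold change of 2.75 ± 0.57 (SE) had an adjusted p of 0.0940, and with the block 0.0152 (edgeR, range over 12 alternatives 0.00624 to 0.236). *Ryr2* met the filter on low counts only through *Myh11*-high cells, so its entry into this test depended on its level there. Since *Ryr2* is best known from the heart, muscle markers were read beside it. The summed level of 6 cardiomyocyte markers was 13.8 and 5.45 CPM in *Myh11*-high and 4.62 and 7.55 CPM in *Myh11*-low cells, and that of 4 skeletal muscle markers was 36.8 and 10.2 against 5.71 and 2.81 CPM. The cardiac and skeletal myosin genes *Myh6* and *Myh4* had 0 UMIs in *Myh11*-high, *Myh11*-low and endothelial cells of both libraries, but 3 of the 6 and 3 of the 4 markers had a UMI in the *Myh11*-high cells of both. Another skeletal myosin gene, *Myh1*, was at 7.77 and 2.01 CPM in *Myh11*-high and 1.92 and 0.64 CPM in *Myh11*-low cells, and skeletal actin *Acta1* at 28.8 and 7.98 against 3.79 and 2.17 CPM. Their part in the *Ryr2* result was not tested.

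*Atp2a2*, the calcium pump of the sarcoplasmic reticulum, was at 212 and 212 CPM in *Myh11*-high, 182 and 181 CPM in the middle class and 160 and 147 CPM in *Myh11*-low cells. The 3 classes kept this order in both libraries without overlap. The log2 fold change of 0.52 ± 0.12 (SE) had an adjusted p of 0.1003 by class and 0.0151 with the block (edgeR, range over 12 alternatives 0.00143 to 0.186). Its inhibitor *Pln* was found in 6 of 4866 cells (8 UMIs) and 9 of 6824 cells (9 UMIs), of which 3 UMIs lay in 1 endothelial cell of library 1. In library 2, 6 *Pln* UMIs lay in the 879 *Myh11*-high cells and 2 in the 5362 *Myh11*-low cells, and in library 1 these were 1 and 4. *Pln* did not pass the filter on low counts, so no fold is given. *Pln* UMIs per 1000 *Atp2a2* UMIs were 0.352 (0.00891 to 1.96) and 1.46 (0.535 to 3.18) in *Myh11*-high cells. In *Myh11*-low cells they were 0.261 (0.0712 to 0.670) and 0.144 (0.0175 to 0.522).

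*Vasp* was at 155 and 117 CPM in *Myh11*-high and 110 and 85.4 CPM in *Myh11*-low cells. Each library was higher in its *Myh11*-high cells, but the lowest *Myh11*-high value was only slightly above the highest *Myh11*-low value. The log2 fold change was 0.54 ± 0.20 (SE), with an adjusted p of 0.263 by class and 0.0363 with the block (edgeR, range over 12 alternatives 0.0363 to 0.453). *Ppp1r12a* was at 309 and 207 CPM in *Myh11*-high and 246 and 131 CPM in *Myh11*-low cells, so the classes overlapped across libraries and the libraries differed more than the classes did. Its log2 fold change of 0.50 ± 0.35 passed neither way (edgeR adjusted p = 0.560 and 0.0556).

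*Cacna1c* did not differ detectably between the VSMC classes. It was at 9.26 and 6.69 CPM in *Myh11*-high and 10.4 and 6.30 CPM in *Myh11*-low cells, a ratio of 0.895 (0.736 to 1.08) in library 1 and 1.06 (0.872 to 1.29) in library 2. The log2 fold change was -0.01 ± 0.33 (SE, edgeR adjusted p = 0.995), an error that leaves room for a change of some size. All 9 genes other than *Pln* had a higher share of cells with a UMI in *Myh11*-high than in *Myh11*-low cells of both libraries, but after thinning to 3000 UMIs this held for 8, all but *Cacna1c*. The same counts over all genes were not computed, so these are not read as a result about the members. Shares without thinning also rise with depth, which was higher in *Myh11*-high cells.

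**Figure D2:**
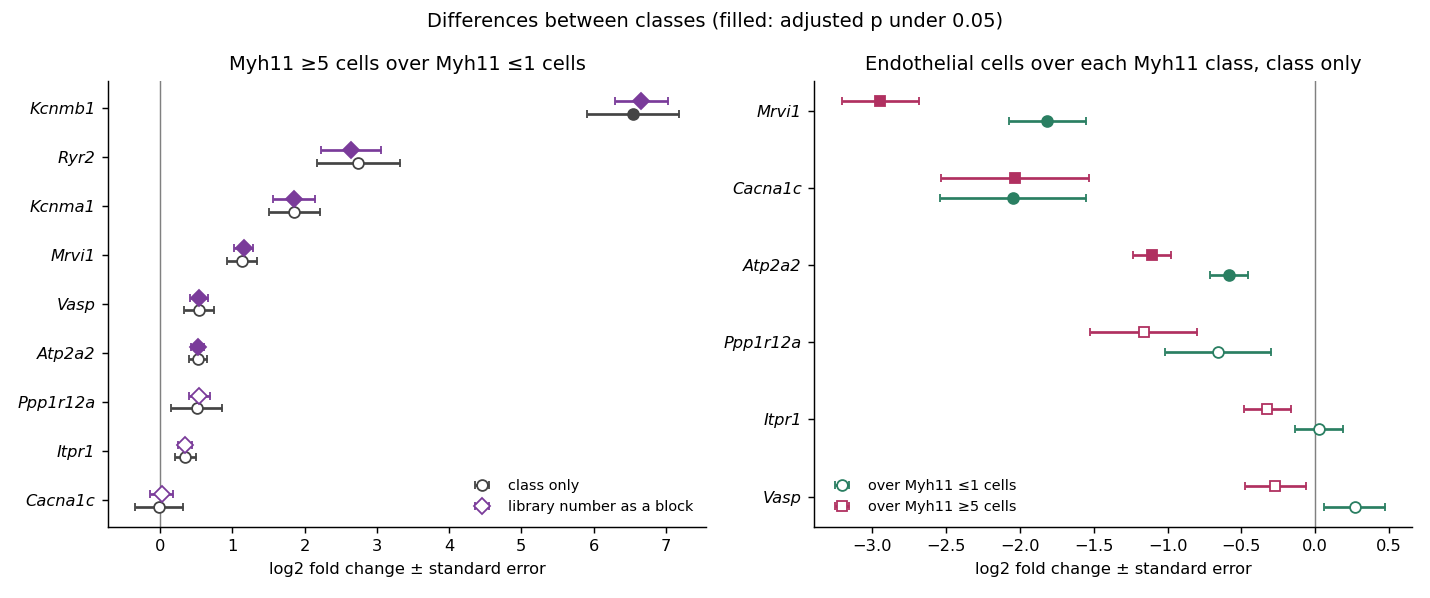
Log2 fold changes with bars of 1 standard error (2 libraries), on the left for the 9 members tested in *Myh11*-high over *Myh11*-low cells by class alone (circles) and with the library as a block (diamonds), on the right for 6 members in endothelial cells over *Myh11*-low (circles) and *Myh11*-high cells (squares) by class alone, with filled symbols past the threshold. *Kcnmb1* stands at 6.55 and *Cacna1c* at -0.01 between the *Myh11* classes, and *Mrvi1* lies below 0 in both endothelial comparisons.

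Comparing each library with itself moved the counts more than the folds. With the library as a block 1166 genes rose (8.82% of those tested) and 981 fell, and 6 of the 9 members tested rose and none fell, against 242 genes up and 56 down by class alone. Among the members that rose was *Ryr2*, which was tested only through the class where it is high. The median log2 fold change of the 9 members was 0.54, beside -0.02 over all genes. The sums of a library come from 1 culture, so the block compares cells that shared it.

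The members were also read across finer bins of *Myh11*. From 0 *Myh11* UMIs to 20 to 49 UMIs, *Kcnmb1* went from 0.17 to 102 CPM in library 1 and from 0.51 to 94.3 CPM in library 2. Already the cells with a single *Myh11* UMI of library 2 had 7.01 CPM, against 1.02 CPM in library 1. Between the same end bins *Mrvi1* went from 40.9 to 85.7 CPM and from 30.5 to 103 CPM, and *Atp2a2* from 160 to 229 CPM and from 148 to 245 CPM. The order of the bins held for *Kcnmb1* and *Mrvi1* in both libraries, whereas *Atp2a2* in library 2 was slightly lower at 1 UMI (146 CPM) than at 0. *Cacna1c* moved between 7.503 and 11.95 CPM in library 1 and between 5.06 and 9.36 CPM in library 2 with no order. The bin of 50 or more UMIs held 10 and 2 cells and is not read.

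**Figure D3:**
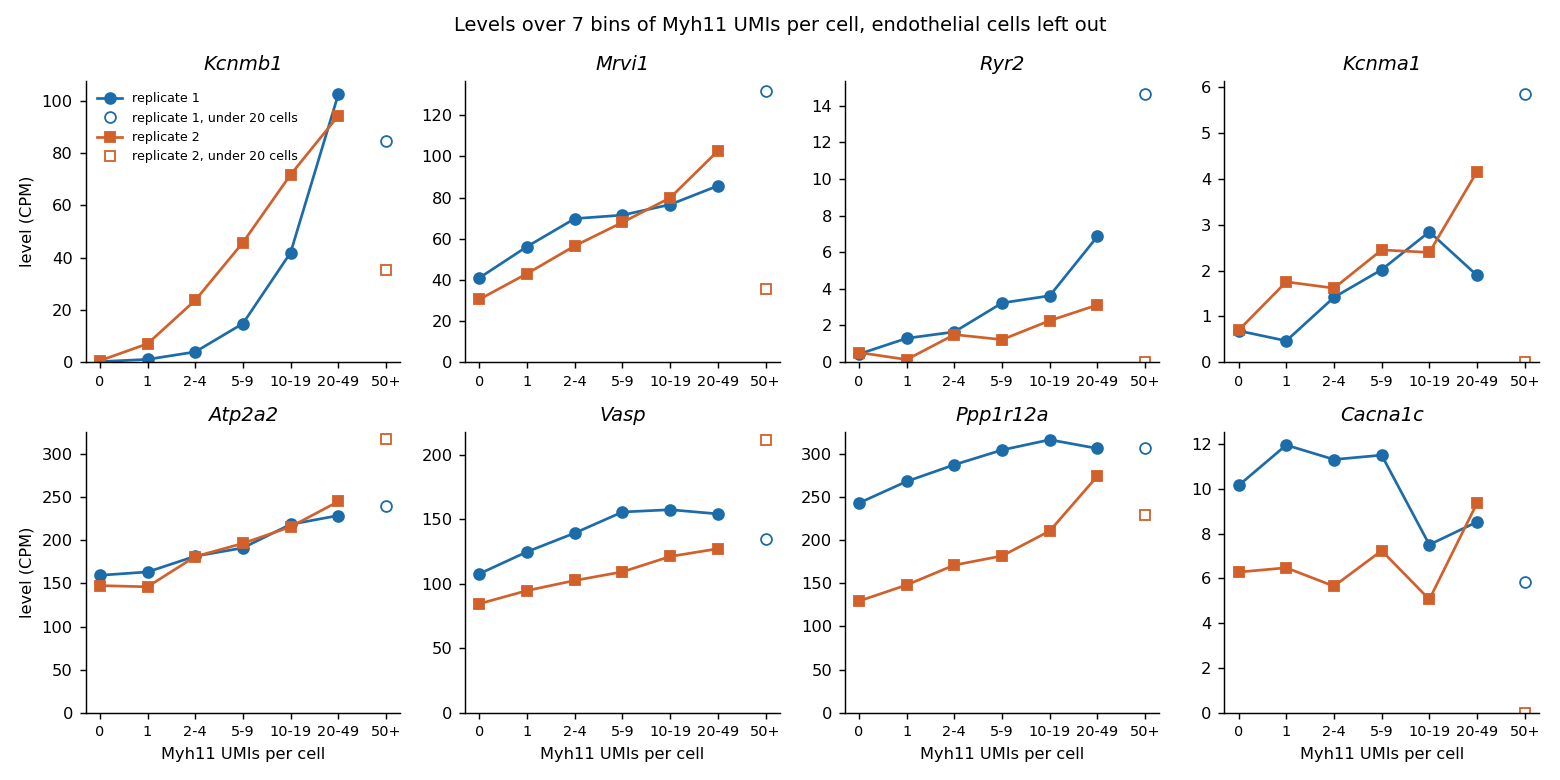
Level of 8 members in CPM, on linear axes from 0, against 7 bins of *Myh11* UMIs per cell, with a line for each library, endothelial cells left out and open symbols for the last bin, which rests on 10 and 2 cells. *Kcnmb1* rises from 0.17 and 0.51 CPM at 0 *Myh11* UMIs to 102 and 94.3 CPM at 20 to 49 UMIs.

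Within *Myh11*-high cells, the members were also read by cell cycle, and the values of 3 are given. Cycling against not cycling cells had 55.6 and 48.5 CPM of *Kcnmb1* in library 1 but 60.0 and 66.0 CPM in library 2. *Mrvi1* was at 72.0 and 85.9 CPM in library 1 and 74.0 and 81.2 CPM in library 2, lower in cycling cells of both. *Ryr2* was lower in cycling cells of both libraries as well, at 4.33 and 5.23 CPM and at 1.33 and 2.49 CPM. So were *Vasp*, *Atp2a2*, *Kcnma1*, *Ppp1r12a* and *Cacna1c*, while *Itpr1* was higher in cycling cells of both. These are descriptions of cells, with no test.

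The endothelial cells served as a second cell type in the same cultures. Against *Myh11*-low cells 3 members were lower, none higher, where 6.51% of all genes were lower. *Mrvi1* was at 13.2 and 9.14 CPM in endothelial cells, below every VSMC value, with a log2 fold change of -1.81 ± 0.26 (SE, edgeR adjusted p = 0.00813, and up to 0.0266 over 13 alternatives). *Atp2a2* was at 105 and 114 CPM, below the 147 CPM of the lowest VSMC class (log2 -0.59 ± 0.13, adjusted p = 0.0310, up to 0.0471). *Cacna1c* rested on 5 and 3 UMIs in endothelial cells (2.55 and 1.71 CPM, log2 -2.05 ± 0.50, adjusted p = 0.0420), and its call was lost without the filter on low counts (adjusted p = 0.0878). With the library as a block *Ppp1r12a* joined them (log2 -0.60 ± 0.16, adjusted p = 0.0343), 4 of 9 members beside 15.6% of all genes.

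Against *Myh11*-high cells 5 members were lower in endothelial cells and none higher, where 8.09% of all genes were lower. Over all genes 1244 were higher and 1069 lower, and 1595 and 778 with library sizes alone, which moved the median log2 fold change of all genes from -0.03 to 0.12. The gap was -2.95 ± 0.26 for *Mrvi1* (SE, edgeR adjusted p = 0.00174), -1.11 ± 0.13 for *Atp2a2* (adjusted p = 0.00416), -2.04 ± 0.50 for *Cacna1c* (adjusted p = 0.0418) and -5.88 ± 0.88 for *Kcnmb1* (adjusted p = 0.00879), all on the log2 scale. The call of *Cacna1c*, with 5 and 3 endothelial UMIs, held in 12 of 13 alternatives (adjusted p up to 0.0894). *Ryr2* had 0 UMIs in the endothelial cells of both libraries, which allows up to 1.53 and 1.71 CPM (3 counts). With the *Myh11*-high levels taken as exact, these were at least 3.13 and 1.11 times higher. The counting error of the 64 and 37 *Ryr2* UMIs in *Myh11*-high cells is not in these bounds, so the 1.11 of library 2 is not a firm one. The edgeR adjusted p was 0.0484, but 0.0507 with library sizes alone and 0.110 without the filter. *Ryr2* met that filter only through *Myh11*-high cells. The block added *Ppp1r12a* (adjusted p = 0.00334), making 6 of 9 members beside 15.3% of all genes. *Itpr1* and *Vasp* passed in neither endothelial comparison, with 43.8 and 36.5 CPM of *Itpr1* and 123 and 128 CPM of *Vasp* in endothelial cells.

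A few cells in the endothelial class also held *Myh11*. All 4 *Kcnmb1* UMIs of the class (1 and 3) came from the 5 and 3 endothelial cells with at least 2 *Myh11* UMIs, as did the 3 *Kcnma1* UMIs of library 2. The remaining 97 and 138 endothelial cells had 0 *Kcnmb1* UMIs, which allows up to 1.71 and 1.83 CPM. With their own levels taken as exact, *Myh11*-high cells were at least 30.5 and 34.3 times higher. *Mrvi1* remained at 10.8 and 5.50 CPM in these cells (19 and 9 UMIs), above the 1.40 and 1.123 CPM expected from RNA in the medium.

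*Gucy1b1* encodes the β1 subunit of the nitric oxide-sensitive guanylyl cyclase, which supplies cGMP to cGK. Among VSMCs it was asked whether the members differ between cells with and without a *Gucy1b1* UMI when each pair has like depth (total UMIs within 5%) in the same library, with 1420 and 1877 pairs. *Kcnmb1* was at 13.4 CPM with and 3.02 CPM without *Gucy1b1* in library 1, and at 28.1 and 4.97 CPM in library 2. *Mrvi1* was at 62.9 and 41.5 CPM in library 1 and at 59.4 and 32.0 CPM in library 2. *Ryr2* was at 1.95 and 0.53 CPM in library 1 and at 1.31 and 0.48 CPM in library 2. In each of the 3 genes both sets with *Gucy1b1* lay above both sets without it. The same held for *Itpr1* and *Kcnma1*, while the sets of *Vasp*, *Ppp1r12a*, *Atp2a2* and *Cacna1c* overlapped. The share of all genes that separated in this way was not computed, so the separation is not read as particular to these members.

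By class alone 0% of the 13822 genes passed in this comparison (503 had an unadjusted p under 0.05, and DESeq2 called 59), and accordingly 0 of 9 members. *Kcnmb1* had a log2 fold change of 2.37 ± 0.46 (SE), *Ryr2* one of 1.68 ± 0.39 and *Mrvi1* one of 0.73 ± 0.18, with an edgeR adjusted p of 1.00 for each. With the library as a block 3.62% of genes rose, among them 3 of the 9 members, *Kcnmb1* (adjusted p = 0.000939), *Mrvi1* (adjusted p = 0.0109) and *Ryr2* (adjusted p = 0.0254), whose adjusted p-values over 12 alternatives otherwise reached 1.00. The other members had log2 fold changes between 0.08 (*Atp2a2*) and 0.42 (*Kcnma1*). *Myh11* itself was at 132 and 50.2 CPM in library 1 and 217 and 39.0 CPM in library 2 in the sets with and without *Gucy1b1*, so the sets also differed in *Myh11*.

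When pairs were also matched on *Myh11* class (1371 and 1424 pairs), the differences shrank and the same 3 genes passed with the block. *Mrvi1* was at 62.01 against 47.8 CPM in library 1 and 53.5 against 39.4 CPM in library 2, a log2 fold change of 0.39 ± 0.05 (SE with the block, adjusted p = 0.00115). *Kcnmb1* was at 12.5 against 5.21 CPM and 18.3 against 12.4 CPM (0.85 ± 0.14, adjusted p = 0.00316), and *Ryr2* at 1.84 against 0.75 CPM and 1.24 against 0.71 CPM (1.06 ± 0.28, adjusted p = 0.0358). All 3 were higher with *Gucy1b1* in both libraries, where the block called 4.65% of all genes higher. Their sets did not overlap, but for *Kcnmb1* only narrowly (12.5 CPM with it in library 1, 12.4 CPM without it in library 2). How many of all genes separated in this way was not computed, so this too is not read as particular to these members. By class alone 0% of the 13624 genes passed (227 at an unadjusted p under 0.05, 1 by DESeq2), and adjusted p-values of the 3 genes ran up to 1.00 over 18 alternatives. *Myh11* was still at 120 against 87.1 CPM in library 1 and 129 against 120 CPM in library 2, and cycling cells made up 47.3% against 40.9% and 43.3% against 32.6%.

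**Figure D4:**
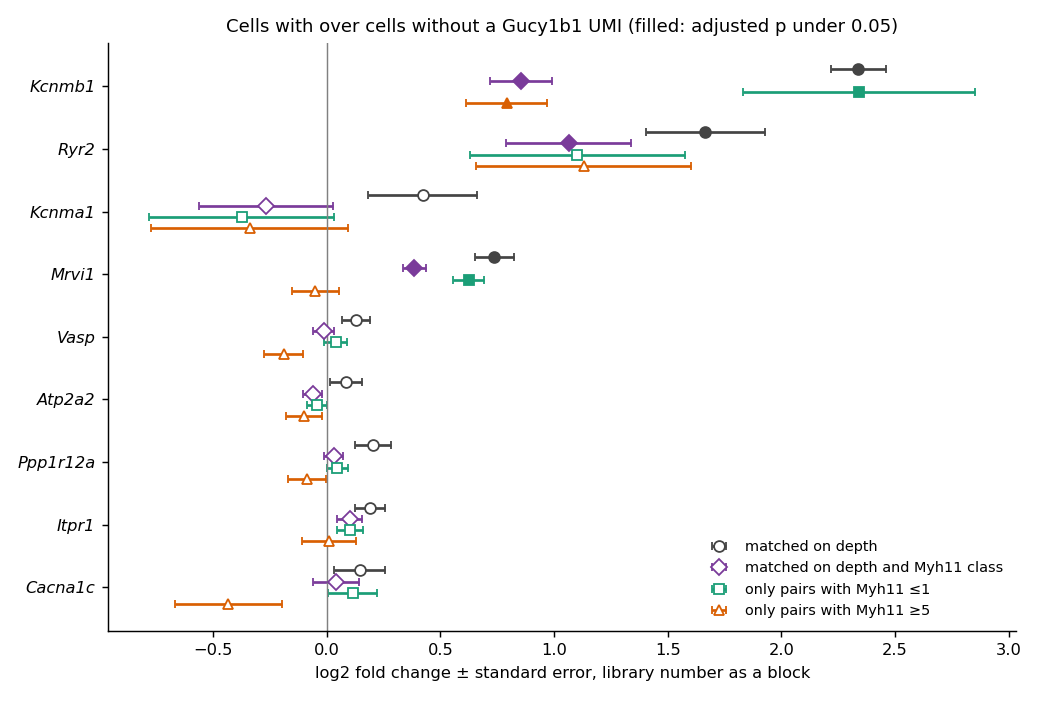
Log2 fold change with bars of 1 standard error, with the library as a block, of the 9 members tested in cells with over cells without a *Gucy1b1* UMI, for pairs matched on depth, for pairs also matched on *Myh11* class, and for the *Myh11*-low and *Myh11*-high pairs alone, with filled symbols past the threshold. *Mrvi1* stands at 0.39 in the pairs matched on class, at 0.62 in the *Myh11*-low and at -0.05 in the *Myh11*-high pairs.

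Matching within 7 bins of *Myh11*, chosen after seeing the data, brought *Myh11* to 83.5 against 79.2 CPM and 119 against 119 CPM. With the block *Mrvi1* (log2 0.39 ± 0.06, edgeR adjusted p = 6.92e-07) and *Kcnmb1* (0.54 ± 0.10, adjusted p = 8.53e-05) still passed, and *Ryr2* did not (0.74 ± 0.29, adjusted p = 0.0988). Among the *Myh11*-low pairs alone *Mrvi1* was at 56.5 against 39.3 CPM and 47.5 against 27.4 CPM (0.62 ± 0.07, adjusted p = 0.00199 with the block). Among the *Myh11*-high pairs it was at 75.9 against 84.7 CPM and 77.0 against 72.0 CPM, a log2 value of -0.05 ± 0.10 that did not pass (adjusted p = 0.851). The difference between these values, 0.68 ± 0.13 on the log2 scale, was itself just short of the threshold (edgeR adjusted p = 0.0543 with the block and 1.00 without). *Kcnmb1* passed in both, at 2.34 ± 0.51 in *Myh11*-low pairs (adjusted p = 0.0344, from 0.21 to 0.45 CPM and from 0.25 to 2.35 CPM) and 0.79 ± 0.18 in *Myh11*-high pairs (adjusted p = 0.0390, from 31.0 to 75.9 CPM and from 56.9 to 73.6 CPM). In the *Myh11*-low pairs the *Kcnmb1* levels without *Gucy1b1* were near the 0.18 and 0.29 CPM expected from RNA in the medium. There it met the filter on low counts only through the sets with *Gucy1b1*, so that value is a description. *Ryr2* passed in neither kind of pairs (1.10 ± 0.47 and 1.13 ± 0.47, adjusted p = 0.281 and 0.241), and in the *Myh11*-high pairs of library 2 it was lower with *Gucy1b1* (1.89 against 2.17 CPM), unlike in library 1 (7.90 against 2.12 CPM). *Myh11* itself still differed between cells with and without *Gucy1b1* in these pairs. It was at 5.03 against 3.61 CPM and 7.15 against 3.15 CPM in *Myh11*-low pairs of libraries 1 and 2. In *Myh11*-high pairs it was at 687 against 494 CPM and 574 against 562 CPM. Cycling cells were also more frequent with *Gucy1b1* in both libraries. They made up 47.4% against 42.2% and 42.6% against 31.6% of *Myh11*-low pairs. In *Myh11*-high pairs they were 48.1% against 36.5% and 45.3% against 35.0%, and within 7 bins 47.5% against 40.6% and 43.7% against 32.5%. The part of *Myh11* and of cycling cells in these folds was not tested.

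To place the members in their pathway, 78 other genes of cGMP synthesis and breakdown, cGK substrates, myosin phosphatase, calcium stores, calcium entry and extrusion and potassium channels were read, of which 64 were tested. By class alone 10 rose in *Myh11*-high cells and none fell, and with the block 23 rose and 6 fell. Over all genes 1.83% rose and 0.424% fell by class alone, and 8.82% rose and 7.42% fell with the block. The receptor guanylyl cyclase *Npr1* and the α1 and β1 subunits of the nitric oxide-sensitive cyclase were among the 10, *Npr1* at 9.04 and 6.84 against 0.26 and 0.46 CPM (log2 4.51 ± 0.33, edgeR adjusted p = 0.00622), *Gucy1a1* at 1.95 ± 0.29 and *Gucy1b1* at 1.89 ± 0.29. *Npr1* did not meet the filter on low counts through *Myh11*-low cells. The α2 subunit *Gucy1a2* did not pass, at 10.8 and 9.26 against 7.75 and 7.65 CPM. The kinase gene *Prkg1* was not among them, at 39.5 and 26.9 against 29.0 and 23.1 CPM. Of 10 other cGK substrates 2 rose, *Hspb6* (a small heat shock protein, 78.4 and 85.4 against 30.8 and 30.8 CPM) and *Enah* (a relative of VASP, 161 and 127 against 34.8 and 31.1 CPM).

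Around *Ppp1r12a*, 2 of 7 genes of myosin phosphatase and myosin kinases rose by class alone and 6 with the block, beside 1.83% and 8.82% of all genes. *Ppp1r14a*, whose product CPI-17 inhibits the phosphatase, was at 138 and 172 CPM in *Myh11*-high and 12.9 and 9.78 CPM in *Myh11*-low cells (log2 3.82 ± 0.38, edgeR adjusted p = 0.0109). *Rock1*, a kinase that restrains the phosphatase, was at 492 and 407 against 221 and 182 CPM (1.21 ± 0.17, adjusted p = 0.0305). With the block the relatives *Ppp1r12b* (0.81 ± 0.14) and *Ppp1r12c* (0.45 ± 0.10), the catalytic subunit *Ppp1cb* (0.48 ± 0.11) and myosin light chain kinase *Mylk* (2.12 ± 0.17) passed too.

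Around the store, 2 of 10 genes tested rose by class alone, both at low levels, beside the same 1.83% of all genes. These were the calcium pump *Atp2a3* (0.75 and 1.18 against 0.06 and 0.13 CPM) and the calcium-binding *Casq1* (1.87 and 1.34 against 0.21 and 0.13 CPM). Among the *Myh11* classes both met the filter on low counts in *Myh11*-high and not in *Myh11*-low cells. Of the 2 genes, *Atp2a3* also met it in endothelial cells. The entry of both into this test thus depended on classes where they are higher. With the block *Jph2*, which tethers the store to the plasma membrane (70.7 and 56.5 against 29.2 and 14.5 CPM), *Casq2* and *Fkbp1a* passed as well, and *Itpr2*, a relative of *Itpr1*, fell (log2 -1.26 ± 0.18, edgeR adjusted p = 0.00775, 9.86 and 6.12 against 19.8 and 19.2 CPM), as did the chaperone *Calr*. Among 19 genes of calcium entry and extrusion the plasma membrane pump *Atp2b4* rose (36.3 and 40.9 against 10.1 and 5.42 CPM, log2 2.37 ± 0.32, adjusted p = 0.0275). The block added *Cacnb2*, *Trpv2* and *Slc8a1* as higher and *Stim2* and *Piezo1* as lower. None of 4 potassium channel genes tested passed by class alone.

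Some relatives of the members were higher in endothelial cells and others were not. *Itpr2* was at 46.4 and 44.0 CPM and *Itpr3* at 27.5 and 37.7 CPM there, against 19.8 and 19.2 CPM and 2.06 and 5.75 CPM in *Myh11*-low cells, and both were higher (edgeR log2 1.119 ± 0.25 and 2.97 ± 0.54, adjusted p = 0.0323 and 0.0177), while *Itpr1* did not pass. The pump *Atp2a3* was at 20.9 and 17.1 against 0.06 and 0.13 CPM (log2 7.51 ± 0.51, adjusted p = 0.00069), opposite in sign to *Atp2a2*. *Ppp1r12b*, a relative of *Ppp1r12a*, was lower (log2 -1.46 ± 0.18, edgeR adjusted p = 0.00511), and *Enah*, a relative of *Vasp*, did not pass (-0.32 ± 0.20). Of the 64 genes tested 10 were higher in endothelial than in *Myh11*-low cells, among them the store-operated channel *Orai1* (105 and 138 against 16.7 and 19.7 CPM) and the potassium channel *Kcnn4* (20.4 and 31.4 against 0.18 and 0.45 CPM), and 14 were lower, among them *Prkg1* (10.7 and 8.57 against 29.0 and 23.1 CPM, log2 -1.52 ± 0.30, adjusted p = 0.0238). The 10 include the phosphodiesterase genes *Pde2a* and *Pde9a*, at means of 0.04 and 0.10 CPM in *Myh11*-low and 2.67 and 2.93 CPM in endothelial cells. Both met the filter on low counts only through endothelial cells. *Kcnn4* and *Atp2a3* did not meet it through *Myh11*-low cells either, so their entry into this test depended on classes where they are higher. With the block the counts higher and lower were 11 and 23. Over all genes 9.71% were higher and 6.51% lower by class alone, and 15.6% each with the block.

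**Figure D5:**
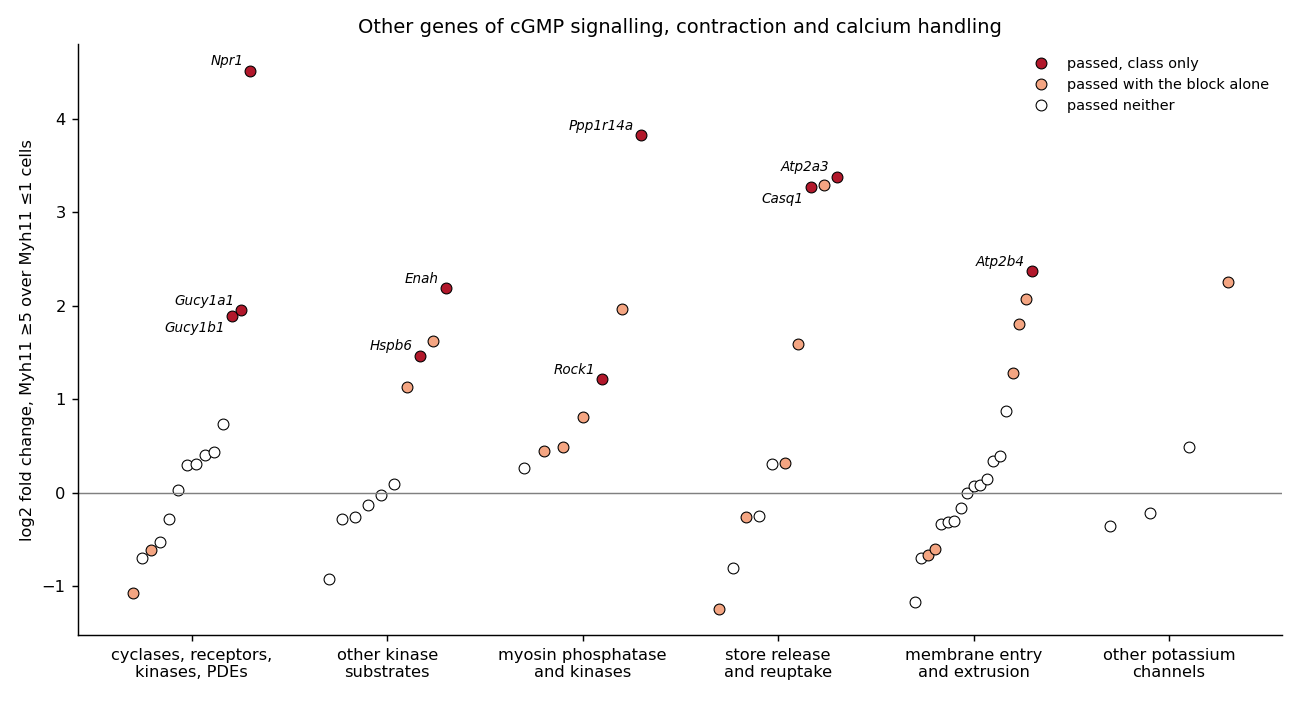
Log2 fold change by class alone of the 64 other pathway genes tested for *Myh11*-high over *Myh11*-low cells, grouped by role, with dark points for the genes past the threshold by class alone, light points for those past it with the block alone and open points for the rest. *Npr1* at 4.51 and *Ppp1r14a* at 3.82 stand highest, and the dark points are the 10 named genes.

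Over the 7 bins of *Myh11* in each library (14 points that share library and depth), the gene whose profile was most like that of *Kcnmb1*, among 9571 genes compared, was *Ptprz1* (Pearson r = 0.991). It was *Tpm1* for *Vasp* (0.989), *Slmap* for *Atp2a2* (0.978) and *Syne1* for *Mrvi1* (0.975). These points include the bin of 10 and 2 cells. Without it (12 points, chosen after seeing the data) r was 0.995 for *Ptprz1*, which was then the third most like, 0.987 for *Tpm1*, the second, 0.976 for *Slmap*, the third, and 0.965 for *Syne1*, at rank 17. For *Mrvi1*, *Itpr1*, *Ppp1r12a*, *Cacna1c* and *Ryr2* none of the 3 most like genes stayed among the first 3 without that bin. Apart from *Syne1* they are not named. These values are descriptions.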

How the data were processed

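The authors deposited UMI counts per gene and barcode, which the submitters' notes describe as made with Cell Ranger 3.0.2 on mm10 (the matrix of library 2 names 3.1.0 in its header). The libraries held 127949633 and 132561822 UMIs. The matrices were not limited to cells (1258619 and 1315368 barcodes had a UMI). Cells were taken from all barcodes by the cutoffs given, so they need not be those of the study. No other cell caller and no doublet caller was run. Counts were summed per library and class and compared in edgeR 4.0.16 by its quasi-likelihood test after TMM scaling and filterByExpr, with Benjamini-Hochberg adjustment over all genes tested and a threshold of 0.05, over 6 sums for the classes and 4 for the matched sets. The filter keeps a gene with enough counts in 2 sums, so a gene near 0 elsewhere can be tested through the class or set where it is high. DESeq2 1.42.0 was an alternative. The code was tested on simulated counts, drawn independently for each sum and fitted by class alone. That test did not cover sums that deviate together or the fits with the block. Sums of 1 library come from the same culture and deviated together (correlation of deviations 0.654 for the *Myh11* classes, 0.304 and 0.343 with endothelial cells, 0.801 and 0.814 for the matched sets), so values with the library as a block are given beside those by class alone. P-values rest on 2 cultures. Intervals are exact binomial (95%) and, like the limit of 3 counts for a value of 0, cover counting error only. RNA in the medium was read from barcodes of 1 to 100 UMIs, and its share in a cell (3.07% and 4.10%) from *Pecam1*, *Cdh5*, *Tie1* and *Vwf* in *Myh11*-high cells, genes chosen after their levels were seen. The named genes were the members, the pathway lists and the genes most like each member, and some genes these rules name are not reported here. Members, lists and comparisons were chosen with earlier results of these data known.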

Additional observations from a re-analysis of the deposited data

Results flagged for a closer look

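Within *Myh11*-low pairs, *Vasp* was slightly higher in cells with a *Gucy1b1* UMI in both libraries (log2 ratios 0.09 and 0.02), and within *Myh11*-high pairs it was lower in both (-0.21 and -0.13). The fitted difference of these folds was 0.24 ± 0.34 on the log2 scale (SE, edgeR adjusted p = 1.00, and 0.329 with the library as a block), so it was not past the threshold.

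*Cacna1c* behaved alike, with log2 ratios of 0.16 and 0.07 in *Myh11*-low and -0.54 and -0.26 in *Myh11*-high pairs. The difference was 0.55 ± 0.51 (SE, edgeR adjusted p = 1.00, and 0.365 with the block), and the cause was not tested.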

How the results depend on the processing

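Main values were those by class alone. For *Myh11*-high over *Myh11*-low cells 298 genes and 1 member passed, against 1160 and 5 with DESeq2, 67 and 0 without a filter on low counts, 2147 and 6 with the library as a block, 996 and 5 for at least 10 against 0 *Myh11* UMIs, 629 and 3 for classes by *Myh11* per UMI, and 2 members with the top 5% of cells by UMIs left out. Endothelial over *Myh11*-low cells gave 2145 genes, 1374 without the filter and 4118 with the block, and endothelial over *Myh11*-high cells 2313, 1508 (3 members in place of 5) and 3975. For the sets by *Gucy1b1* 0 genes passed, against 59 (1 member) with DESeq2 and 729 (3) with the block. Within *Myh11* classes 0 passed, against 1 with DESeq2, 1128 (3 members) with the block, and, chosen after seeing the data, 628 (2) in *Myh11*-low pairs, 458 (1) in *Myh11*-high pairs and 1505 (2) within 7 bins, all with the block. The difference of the folds gave 0 and, with the block, 136. The block ended no call of a member.

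Directions that turned belong to folds that did not pass, except *Mrvi1* within *Myh11* classes, which passed with the block. Between *Myh11* classes *Cacna1c* was at 0.021 with the block, 0.0027 without the top 5% of cells and 0.073 by *Myh11* per UMI. In endothelial over *Myh11*-low cells *Itpr1* was at -0.035 without the filter, *Kcnma1* at -0.39 and *Kcnmb1* at -7.58 in endothelial cells with at most 1 *Myh11* UMI (where *Kcnmb1* had 0 UMIs), and *Kcnmb1* at -1.17 without the top 5% of cells and -0.57 without cycling cells. By *Gucy1b1* within *Myh11* classes, the *Myh11*-high pairs gave *Mrvi1* -0.055 (-0.052 with the block), *Ppp1r12a* -0.11 (-0.086) and *Cacna1c* -0.44 (-0.43), while *Vasp* turned to 0.042 (0.039) in *Myh11*-low pairs, 0.0072 with library sizes alone and 0.00090 without cycling cells. The causes were not tested. With 1 library left out there was no residual spread and so no test, and the log2 fold change between *Myh11* classes ran from 5.91 to 7.42 for *Kcnmb1*, 1.89 to 3.09 for *Ryr2* and 0.94 to 1.34 for *Mrvi1*. Depth limits *Pln*, *Kcnma1*, *Ryr2* and the endothelial values of *Cacna1c* and *Kcnmb1*.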
